A study of Homo sapiens with 10 samples.

Results

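The genes described here encode carrier proteins, apolipoproteins and related proteins that hepatocytes secrete into blood plasma. Their list holds 35 gene symbols, and 32 of them had a transcript cluster of their own, out of 22392 genes with such a cluster on the array. A transcript cluster is a set of probes read as 1 value, and where a gene had several the brightest was used. Each of the 32 was tested, with no filter on low values. ITIH4 and VTN were found only in clusters shared with another gene symbol, GC was not matched, and none of these 3 has a value here. The study examined the response of hepatocarcinoma cells to sorafenib, an inhibitor of RAF and of receptor tyrosine kinases, on Affymetrix HuGene 2.1 ST arrays. Huh7 cells derive from a human liver cancer, a hepatocellular carcinoma. The other line is labelled shRb, and the labels do not say how it was made or whether it is 1 clone. The 4 groups were shRb cells given sorafenib at 10 μM over 9 h (replicates 10, 11 and 12), untreated shRb cells (replicates 7, 8 and 9), Huh7 cells treated in the same way (replicates 5 and 6) and untreated Huh7 cells (replicates 1 and 3). The culture medium held fetal calf serum, and the controls are labelled with no treatment, so vehicle and drug cannot be told apart. The labels speak of biological replicates, but both treated Huh7 samples carry the same ordinal there, and their origin from separate cultures is assumed.

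Hepatocytes make most of the protein of the plasma. Apolipoproteins hold lipoprotein particles together and steer them to enzymes and receptors, carriers keep hormones, metals, haem and vitamins in solution, and serpins and related proteins hold proteases in check. In inflammation, cytokines such as interleukin-6 raise some of these proteins in the liver and lower others, and these are known as positive and negative acute phase proteins. Their genes are switched on in liver by factors of the HNF4, FOXA and C/EBP families.

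Promoters of 24 of the 32 genes were held by the RefSeq table used (GRCh38.p14), which had no entry for APOA1, APOB, APOC3, TTR, HP, ITIH2, CP and LCAT. The 250 bases before each start were searched on both strands for letters known from liver promoters. The C/EBP letters TTGCNNAA were found in 9 of the 24 genes (37.5%, against 11% of all 27305 genes in the table), namely ALB, SERPINA7, SERPINA10, TF, HPX, AHSG, FETUB, RBP4 and SHBG. Also found were the FOXA letters TGTTTAC in 2 (8.33%, against 3.66%), the HNF4 letters CAAAGTCCA in AHSG alone (4.17%, against 0.403%) and the TATA box TATAAA in 4 (16.7%, against 13%). In RBP4 TATA matches on both strands overlap. A match is a description of letters and not a measured binding site. Below are 3 promoters of genes that the results return to. SERPINA6 (chr14:94323337-94323586, minus strand) was the only one of these genes to pass the test with sorafenib, SERPINA3 (chr14:94612141-94612390, plus strand) had opposite signs in the lines, and ALB (chr4:73404037-73404286, plus strand) differed between the treated lines. Capitals mark matches to the FOXA and C/EBP letters.
SERPINA6: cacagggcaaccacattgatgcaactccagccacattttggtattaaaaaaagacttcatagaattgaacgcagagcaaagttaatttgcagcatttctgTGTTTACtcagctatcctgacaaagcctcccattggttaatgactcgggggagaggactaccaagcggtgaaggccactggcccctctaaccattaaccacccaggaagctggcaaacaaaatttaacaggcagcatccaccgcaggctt
SERPINA3: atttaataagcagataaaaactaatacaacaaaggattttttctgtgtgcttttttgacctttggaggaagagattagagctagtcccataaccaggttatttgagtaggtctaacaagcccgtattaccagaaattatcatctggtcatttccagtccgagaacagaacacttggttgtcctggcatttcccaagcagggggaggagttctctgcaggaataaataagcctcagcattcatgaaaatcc
ALB: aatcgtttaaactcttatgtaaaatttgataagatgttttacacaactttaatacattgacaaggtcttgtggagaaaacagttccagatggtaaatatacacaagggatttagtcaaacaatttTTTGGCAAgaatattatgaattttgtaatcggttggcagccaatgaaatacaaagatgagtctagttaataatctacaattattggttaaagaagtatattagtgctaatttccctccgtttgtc
The SERPINA6 window held 1 FOXA match. That of ALB held a C/EBP match at positions -125 to -118 from the start, and that of SERPINA3 held none of the letters searched. In the RefSeq gene table SERPINA10, SERPINA6 and SERPINA1 are neighbours, and SERPINA3 follows after 5 other protein-coding genes. APOA5, APOA4, APOC3 and APOA1 are neighbours as well, as are APOE and APOC1, ITIH1 and ITIH3, and AHSG and FETUB.

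The values are log2 values as the authors normalized them by RMA-sketch, a step that makes the arrays' distributions nearly equal and hides any change in total RNA. The array medians lay between 3.39 and 3.42 and the upper quartiles between 5.21 and 5.29. RB1, which encodes the retinoblastoma protein, had means of 5.67 in treated and 5.81 in untreated shRb cells, against 8.00 in treated and 8.08 in untreated Huh7 cells (adjusted p = 0.000667 treated and 0.00103 untreated, from limma). The 7 hepatocyte and hepatoma markers all lay above the upper quartile in every group. Of these ALB, APOA1, TTR and SERPINA1 are themselves among the plasma protein genes, so that only AFP, KRT8 and KRT18 are a check from other genes. AFP, the fetal counterpart of albumin, was lower in shRb, with means of 10.2 in treated and untreated shRb cells and of 10.9 in treated and 11.0 in untreated Huh7 cells. Endothelial markers lay near or below the median of the array, and of 6 fibroblast and stellate markers only LUM passed the upper quartile, in every group but untreated shRb. Among the leukocyte markers PTPRC, CD3E and CD14 lay below the median, while CD68 lay between 7.71 and 8.72 and LYZ, which tumour cells can express too, between 10.8 and 11.1 in the group means. The array strips are not given in the labels, so batch and line cannot be told apart, and whether a batch went with sorafenib is not known.

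The plasma protein genes ranged widely in brightness but were shifted to bright clusters, with 20 of the 32 above the upper quartile. The dimmest, ITIH3, had a mean of 2.95, above the lower quartile of all clusters, 2.34. A mean above 10 was found for 10 of them over the 10 arrays, namely APOA2, APOB, APOH, ALB, RBP4, TF, TTR, ITIH2, AMBP and AHSG, and a further 10 lay between the upper quartile of all clusters, 5.23, and 10. The other members were 9 genes between the median, 3.40, and the upper quartile, and ITIH3, AZGP1 and CRP below the median. Values of different clusters depend on their probes and do not rank the genes by abundance. Over the 10 arrays, and so over both lines and both treatments, the lowest and highest value of a gene differed by 0.197 for RBP4 up to 1.39 for APOM (log2), with a median of 0.696 and a span under 1 in 26 of the 32 genes. The median residual SD was 0.127 for these genes, against 0.145 for all clusters above the upper quartile and 0.169 for all clusters.

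**Figure D1:**
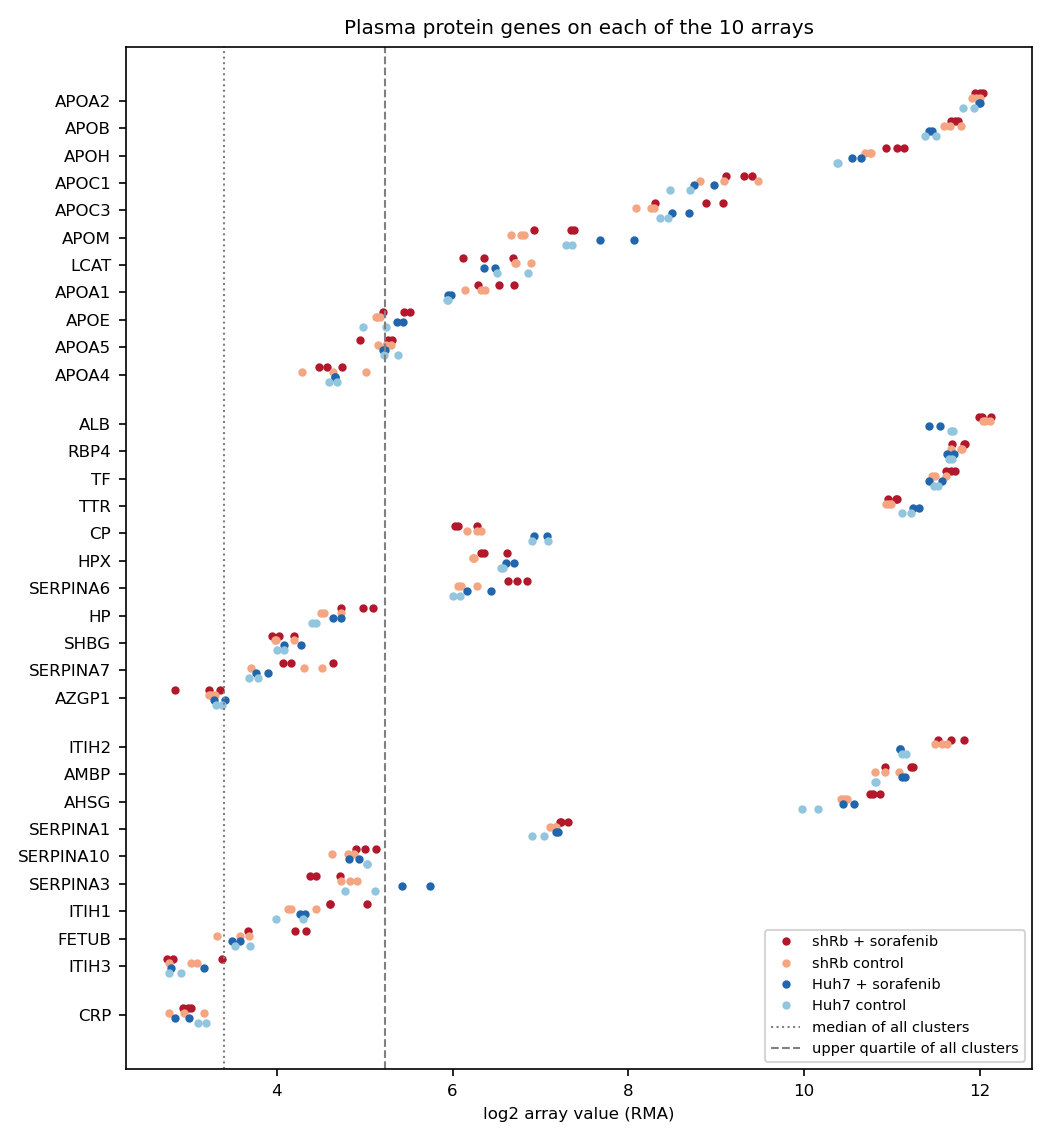
Log2 array value of the 32 plasma protein genes (rows, by role and then by brightness) on each of the 10 arrays (points, coloured by group); the dotted and dashed lines are the median and the upper quartile of all cluster means. The points of each gene lie close together, with the widest spans, 1.39 and 1.37, for APOM and SERPINA3.

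With sorafenib, SERPINA6 rose in shRb cells, and no other plasma protein gene passed the test in that line. SERPINA6 encodes corticosteroid-binding globulin, the plasma carrier of cortisol. Its log2 values were 6.63, 6.73 and 6.84 on the sorafenib arrays of shRb, against 6.27, 6.10 and 6.06 on the control arrays. All sorafenib values lay above all control values. The rise was 0.59 on the log2 scale or 1.50-fold (SE 0.11, 95% interval 0.34 to 0.84, adjusted p = 0.0156 by limma, with 3 arrays in each group). The adjusted p was 0.0652 without control replicate 8, 0.0644 without control replicate 9 and 0.0591 without sorafenib replicate 12. In Huh7 the SERPINA6 values were 6.17 and 6.43 with sorafenib and 6.01 and 6.08 without, again with no overlap, and the difference of 0.26 (95% interval -0.05 to 0.57, adjusted p = 0.492) did not pass. The effects of the lines differed by 0.33 (shRb minus Huh7, 95% interval -0.07 to 0.73, adjusted p = 0.739), so a difference between the lines was not detected.

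Of the 32 genes, 1 passed the test in shRb, against 5.38% of all 53617 clusters (2.3% higher and 3.09% lower) and 6.7% of the genes with a cluster of their own. The 2887 clusters behind this share were 1517 to 1807 when control replicate 7, 8 or 9 or sorafenib replicate 12 was left out. At an unadjusted p under 0.05 there were 10 of 32, of which 9 were higher, against 17.2% of all clusters. The difference was positive in 25 and negative in 7, while 52% of all clusters and 50.7% of genes with their own cluster were positive. The median over the 32 genes was 0.11, against 0.0095 over all clusters, and single genes lay between -0.38 for LCAT and 0.59 for SERPINA6. On all 3 sorafenib arrays 12 genes were higher than on all 3 control arrays and 2 were lower, against 10.5% and 11.1% of all clusters. The 95% interval stayed within 2-fold in either direction for all 32 genes. In these cultures fewer cells expressing a gene and less RNA per cell cannot be told apart.

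In Huh7 cells no plasma protein gene passed the test, against 2.04% of all clusters (0.776% higher and 1.26% lower) and 1.9% of genes with their own cluster, and 4 of 32 had an unadjusted p under 0.05 from limma, against 12.9%. The 1094 clusters behind this share were 199 to 532 when any one Huh7 array was left out. By the methods' t-test 2 had an unadjusted p under 0.05, a level not counted over all clusters for that test. After adjustment 0 of the 32 and 0 of all clusters passed by it. The difference was positive in 23 and negative in 9, against 52.5% positive among all clusters and 54% among such genes, with a median of 0.11 against 0.013 over all clusters and a range from -0.27 for LCAT to 0.64 for SERPINA3. Leaving out control replicate 1 gave a median of 0.065, and leaving out sorafenib replicate 5 gave 0.048. Both sorafenib arrays lay above both control arrays in 16 genes and below both in 5, against 22.9% and 21.6% of all clusters. The 95% interval stayed within 2-fold for 31 of the 32, the exception being SERPINA3. The sign was positive in both lines for 19 genes, negative in both for 3 and opposite for 10. The members of a list share the same arrays, so these counts are no independent observations.

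**Figure D2:**
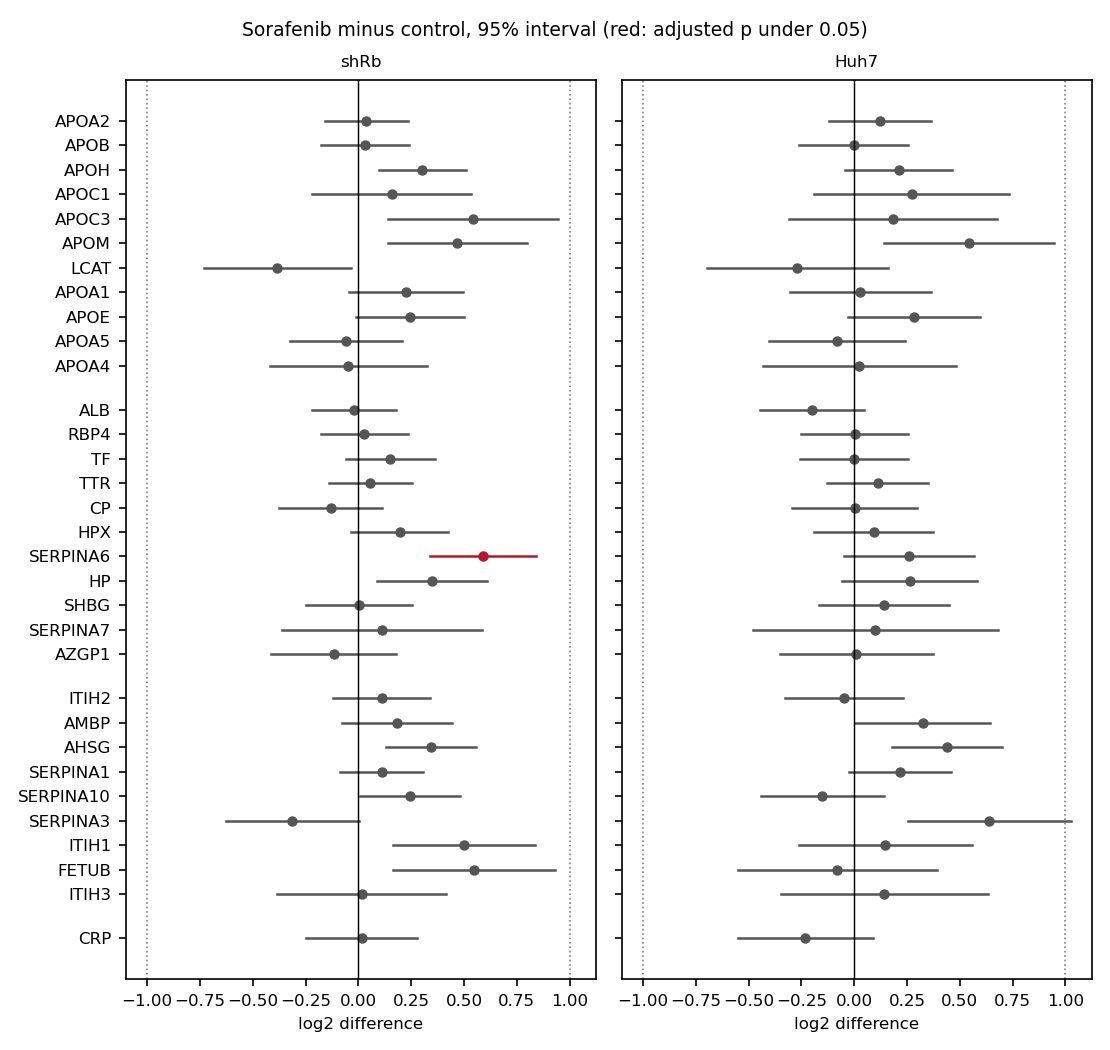
Log2 difference, sorafenib minus control, of the 32 plasma protein genes in shRb (left) and Huh7 (right), with 95% intervals from limma; red marks an adjusted p under 0.05 and the dotted lines mark 2-fold. SERPINA6 in shRb is the single red point, and most points lie a little to the right of 0 in both lines.

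Of the 11 genes of the apolipoprotein group, with LCAT among them, none passed the test with sorafenib in either line, and the medians were 0.16 in shRb and 0.12 in Huh7. APOA1, the main protein of high density lipoprotein, had values of 6.29, 6.53 and 6.70 with sorafenib and 6.32, 6.14 and 6.37 without in shRb, and of 5.99 and 5.95 with and 5.95 and 5.93 without in Huh7. The shRb values overlapped, and the differences were 0.23 in shRb (95% interval -0.04 to 0.50) and 0.03 in Huh7 (-0.30 to 0.36). APOB, the structural protein of the very low and low density lipoproteins, had values of 11.67, 11.72 and 11.75 with sorafenib and 11.65, 11.79 and 11.60 without in shRb, and of 11.42 and 11.46 with and 11.38 and 11.50 without in Huh7. Treated and untreated APOB values overlapped in both lines, with differences of 0.03 in shRb (95% interval -0.18 to 0.24) and of less than 0.01 in size in Huh7 (-0.26 to 0.25). APOA2, another protein of high density lipoprotein, had differences of 0.04 and 0.12 in shRb and Huh7.

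APOM, a carrier of sphingosine-1-phosphate on lipoproteins, had the widest span of all these genes. In shRb its values were 6.93, 7.35 and 7.38 with sorafenib and 6.78, 6.81 and 6.67 without, and in Huh7 they were 7.67 and 8.06 with and 7.35 and 7.29 without. Treated arrays lay above untreated ones in both lines. The differences were 0.47 in shRb (SE 0.15, adjusted p = 0.112) and 0.55 in Huh7 (SE 0.18, adjusted p = 0.203), and neither passed. Without shRb sorafenib replicate 10 the shRb difference was 0.61 and passed (adjusted p = 0.0323), and without Huh7 sorafenib replicate 6 the Huh7 difference was 0.35 (adjusted p = 0.663). The array has 7 APOM clusters, and the other 6 share their values and gave differences of 0.48 and 0.54.

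APOC3, an inhibitor of lipoprotein lipase, had values of 8.30, 8.88 and 9.08 with sorafenib and 8.26, 8.08 and 8.29 without in shRb (difference 0.54, 95% interval 0.14 to 0.95, adjusted p = 0.135). In Huh7 they were 8.49 and 8.69 with and 8.36 and 8.45 without (difference 0.18, -0.31 to 0.68). Groups did not overlap in either line, and replicate 10 was the lowest of the treated shRb arrays, as it was for APOM. APOC3 passed the test, as did APOM and FETUB, when that array was left out, while its neighbours APOA5, APOA4 and APOA1 did not. APOH, or beta-2-glycoprotein I, had values of 11.13, 11.05 and 10.93 with sorafenib and 10.75, 10.69 and 10.76 without in shRb, a difference of 0.30 (SE 0.09, adjusted p = 0.103). In Huh7 its values were 10.64 and 10.54 with and 10.39 and 10.37 without, a difference of 0.21 (SE 0.11, adjusted p = 0.496). APOE, a ligand of the low density lipoprotein receptor, had differences of 0.25 and 0.28, and APOC1, which travels on the same particles, of 0.16 and 0.27 in shRb and Huh7. APOA5, which lowers plasma triglycerides, and APOA4 had differences of -0.08 to 0.02. LCAT, which esterifies cholesterol on lipoproteins, was the lowest of the 32 in both lines, with -0.38 in shRb (95% interval -0.73 to -0.03, adjusted p = 0.235) and -0.27 in Huh7 (-0.70 to 0.16).

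Among the 11 measured carriers of ligands, metals and haem, SERPINA6 passed in shRb and none passed in Huh7, with medians of 0.056 in shRb and 0.092 in Huh7. ALB, which encodes albumin, had values of 12.12, 12.02 and 11.99 with sorafenib and 12.05, 12.04 and 12.11 without in shRb, and of 11.55 and 11.42 with and 11.69 and 11.67 without in Huh7. The shRb groups overlapped (difference -0.02, 95% interval -0.22 to 0.18). In Huh7 both treated values lay below both untreated ones, but the difference of -0.20 (95% interval -0.44 to 0.05, adjusted p = 0.513) did not pass. TTR, or transthyretin, which carries thyroxine and the retinol-binding protein, had values of 10.95, 11.04 and 11.06 with sorafenib and 10.97, 10.99 and 10.93 without in shRb, and of 11.24 and 11.31 with and 11.11 and 11.21 without in Huh7. Its differences were 0.06 (95% interval -0.14 to 0.25) and 0.11 (-0.13 to 0.35) in shRb and Huh7. RBP4, the retinol-binding protein itself, and TF, the iron carrier transferrin, had differences of 0.03 and 0.15 in shRb and of 0.00 for each in Huh7.

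HP, which encodes the haemoglobin-binding haptoglobin, had a difference of 0.35 in shRb (95% interval 0.09 to 0.61, adjusted p = 0.14) and of 0.26 in Huh7 (-0.06 to 0.58), with no overlap in either line. In shRb the nearest treated and untreated HP values, 4.7315 and 4.7266, were apart by a narrow margin. Haptoglobin has a closely related neighbour gene, HPR, so signal of this cluster may not be of HP alone. HPX, the haem carrier haemopexin, had differences of 0.19 and 0.09. CP, which encodes the copper-binding ferroxidase ceruloplasmin, had differences of -0.13 in shRb (95% interval -0.37 to 0.11) and of 0.00 in Huh7 (-0.30 to 0.30). The other hormone carriers were SHBG, the sex hormone-binding globulin, with 0.00 and 0.14, and SERPINA7, the thyroxine-binding globulin, with 0.11 and 0.10 in shRb and Huh7. AZGP1, zinc-alpha-2-glycoprotein, lay below the median of all clusters and had differences of -0.12 and 0.01.

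None of the 9 measured protease inhibitor genes and their relatives passed the test with sorafenib, and their medians were 0.18 in shRb and 0.15 in Huh7. AHSG, which encodes fetuin-A, a binder of calcium phosphate, had values of 10.79, 10.74 and 10.86 with sorafenib and 10.41, 10.49 and 10.45 without in shRb, and of 10.44 and 10.57 with and 9.98 and 10.15 without in Huh7. The groups did not overlap in either line. Its differences were 0.34 in shRb (SE 0.09, 95% interval 0.13 to 0.56, adjusted p = 0.0703) and 0.44 in Huh7 (SE 0.12, 95% interval 0.18 to 0.70, adjusted p = 0.103). With a trended and robust variance both passed (adjusted p = 0.0245 and 0.0390 in shRb and Huh7). Its neighbour FETUB, the related fetuin-B, had values of 3.68, 4.21 and 4.33 with sorafenib and 3.58, 3.68 and 3.32 without in shRb, near the median of the array, and a difference of 0.55 (95% interval 0.16 to 0.93, adjusted p = 0.113). In Huh7 FETUB was at 3.58 and 3.49 with and at 3.70 and 3.52 without (difference -0.08, -0.55 to 0.39).

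SERPINA1, which encodes alpha-1-antitrypsin, the inhibitor of neutrophil elastase, had values of 7.31, 7.22 and 7.24 with sorafenib and 7.16, 7.17 and 7.10 without in shRb, and of 7.17 and 7.20 with and 6.90 and 7.03 without in Huh7. The groups did not overlap, and the differences of 0.11 (95% interval -0.09 to 0.31) and 0.22 (-0.02 to 0.46) in shRb and Huh7 did not pass. The inter-alpha-trypsin inhibitor heavy chains bind to hyaluronan. ITIH1 had values of 4.61, 5.02 and 4.61 with sorafenib and 4.45, 4.16 and 4.13 without in shRb, a difference of 0.50 (SE 0.15, adjusted p = 0.096), and a difference of 0.15 in Huh7. ITIH2 had differences of 0.11 and -0.05, and ITIH3, below the median of all clusters, of 0.02 and 0.14 in shRb and Huh7. AMBP, whose product is cut into alpha-1-microglobulin and bikunin, had differences of 0.18 (adjusted p = 0.502) and 0.33 (adjusted p = 0.376).

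SERPINA3, which encodes alpha-1-antichymotrypsin, an inhibitor of cathepsin G, had opposite signs in the lines. In shRb its values were 4.37, 4.44 and 4.72 with sorafenib and 4.83, 4.73 and 4.91 without. In Huh7 they were 5.74 and 5.43 with sorafenib and 5.11 and 4.78 without. Treated shRb values lay below the untreated ones, the nearest pair by a narrow margin, and treated Huh7 values lay above the untreated ones. The differences were -0.31 in shRb (SE 0.14, adjusted p = 0.294) and 0.64 in Huh7 (SE 0.17, adjusted p = 0.109). The effect in shRb minus that in Huh7 was -0.95 (95% interval -1.45 to -0.46, adjusted p = 0.264, unadjusted p = 0.00169, from limma), so the difference between the lines did not pass. Over all 32 genes this difference of effects passed for none, against 0.0485% of all clusters (0.00933% higher and 0.0392% lower in shRb) and 0.0849% of genes with their own cluster. The 26 clusters behind this share were 3 to 17 when any array other than shRb sorafenib replicate 10 was left out. It was positive in 17, against 49.8% of all clusters, and 3 had an unadjusted p under 0.05, against 7.44%. The other members at that level were SERPINA10, which inhibits factor Xa together with protein Z, with 0.39 (95% interval 0.02 to 0.77), and FETUB, with 0.63 (0.02 to 1.23). The interval stayed within 2-fold for 30 of the 32, the exceptions being SERPINA3 and FETUB.

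CRP, the C-reactive protein, lay below the median of all clusters on every array, with values of 2.98, 3.02 and 2.94 with sorafenib and 2.94, 2.78 and 3.18 without in shRb, and of 3.00 and 2.84 with and 3.11 and 3.20 without in Huh7. Its differences were 0.01 (95% interval -0.25 to 0.28) and -0.23 (-0.55 to 0.09) in shRb and Huh7. Of 7 measured positive acute phase genes among the 32 (CRP, SERPINA1, SERPINA3, HP, HPX, CP and ITIH3), none passed the test with sorafenib in either line, with medians of 0.016 in shRb and 0.14 in Huh7. Of 7 negative ones (ALB, TTR, RBP4, TF, AHSG, APOA1 and SERPINA6), SERPINA6 passed in shRb and none in Huh7, with medians of 0.15 and 0.03.

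**Figure D3:**
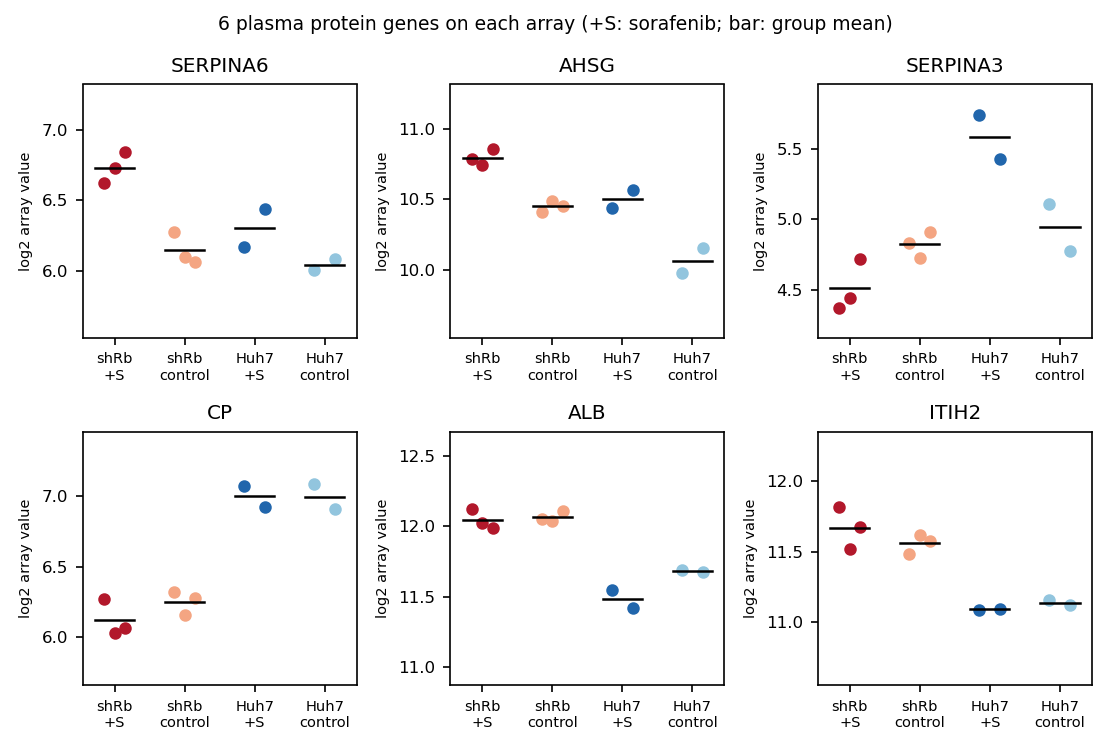
Log2 array value of SERPINA6, AHSG, SERPINA3, CP, ALB and ITIH2 on each array (points) with the group mean (bar), in shRb with sorafenib, shRb control, Huh7 with sorafenib and Huh7 control from left to right; all panels span the same number of log2 units. SERPINA6 and AHSG were higher with sorafenib, treated SERPINA3 values lay on opposite sides of the untreated ones in the lines, and CP, ALB and ITIH2 separated the lines with and without the drug.

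The lines were also compared with each other, with and without sorafenib. CP was lower in shRb under both conditions, and in untreated cells it was the only plasma protein gene to pass the test. Its values were 6.27, 6.03 and 6.06 in treated and 6.32, 6.16 and 6.27 in untreated shRb cells, against 7.07 and 6.93 in treated and 7.09 and 6.91 in untreated Huh7 cells. Every shRb array lay below every Huh7 array. The difference between untreated lines was -0.75, or 1.68-fold lower in shRb (SE 0.12, 95% interval -1.02 to -0.47, adjusted p = 0.023), and that between treated lines was -0.88, or 1.84-fold lower (SE 0.12, -1.15 to -0.61, adjusted p = 0.00657). The untreated call ended without control replicates 1 or 3 of Huh7 (adjusted p = 0.222 and 0.101) or 7, 8 or 9 of shRb (0.0671, 0.0954 and 0.076), and the treated call ended without Huh7 sorafenib replicate 5 (0.0684). These comparisons are of lines that differ in RB1 and AFP as well, and when untreated also in the markers EPCAM and LUM, and the part of a batch or of the culture was not tested.

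Between untreated lines 1 of 32 genes passed, against 1.02% of all clusters (0.647% higher and 0.371% lower) and 1.56% of genes with their own cluster, and 10 had an unadjusted p under 0.05, against 10.2%. The 546 clusters behind this share were 137 to 251 when control replicate 1 or 3 of Huh7 or 7, 8 or 9 of shRb was left out. The difference was positive in 21, against 50.7% of all clusters. The shRb arrays lay above both Huh7 arrays in 9 genes and below them in 7, against 14.7% of all clusters each, and the interval stayed within 2-fold for 31, all but CP. The largest differences after CP were -0.57 for APOM (adjusted p = 0.199), 0.54 for APOC1 (0.32), 0.44 for SERPINA7 (0.604) and 0.42 for ITIH2 (0.163). The 6 genes followed throughout had differences of 0.38 for ALB (95% interval 0.16 to 0.61, adjusted p = 0.148), 0.34 for APOA1 (0.04 to 0.64), 0.24 for APOB (0.01 to 0.47), -0.20 for TTR (-0.42 to 0.02), 0.18 for SERPINA1 (-0.04 to 0.40) and -0.19 for CRP (-0.48 to 0.11).

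Between treated lines 4 of 32 passed, 2 higher and 2 lower in shRb, against 2.28% of all clusters (1.29% higher and 0.99% lower) and 3.62% of genes with their own cluster. The 1223 clusters behind this share were 363 without Huh7 sorafenib replicate 5 and 303 without replicate 6. The difference was positive in 18, against 50.3% of all clusters. At an unadjusted p under 0.05 there were 14, against 13.9%, and without overlap there were 13 higher and 4 lower, against 13.9% and 13.7%. CP, SERPINA3 and ITIH2 are described for this comparison because of their values there. SERPINA3 was 2.11-fold lower in treated shRb cells than in treated Huh7 cells (log2 difference -1.08, SE 0.16, adjusted p = 0.00854), with no overlap, and had a difference of -0.12 (95% interval -0.47 to 0.23) between untreated lines. Its call ended without Huh7 sorafenib replicate 5 (adjusted p = 0.0835). The treated arrays of this comparison are those of the sorafenib comparisons above, so the SERPINA3 values are the same ones.

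ALB was 1.48-fold higher in treated shRb cells than in treated Huh7 cells (log2 difference 0.56, 95% interval 0.34 to 0.79, adjusted p = 0.0215), and every shRb array lay above every Huh7 array, treated or not. The call ended without Huh7 sorafenib replicates 5 or 6 (adjusted p = 0.0821 and 0.172) or shRb sorafenib replicate 10 (0.051). ITIH2 was 1.49-fold higher, with values of 11.82, 11.52 and 11.67 in treated and 11.48, 11.62 and 11.57 in untreated shRb cells, against 11.09 and 11.09 in treated and 11.16 and 11.12 in untreated Huh7 cells (log2 difference 0.58 between treated lines, SE 0.11, adjusted p = 0.0325). The lines did not overlap, but leaving out any array other than shRb sorafenib replicate 11 ended this call, with an adjusted p of 0.0547 to 0.176. APOH (0.45, adjusted p = 0.0608), APOA1 (0.54, 0.0804) and APOM (-0.64, 0.0835) came next and did not pass.

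**Figure D4:**
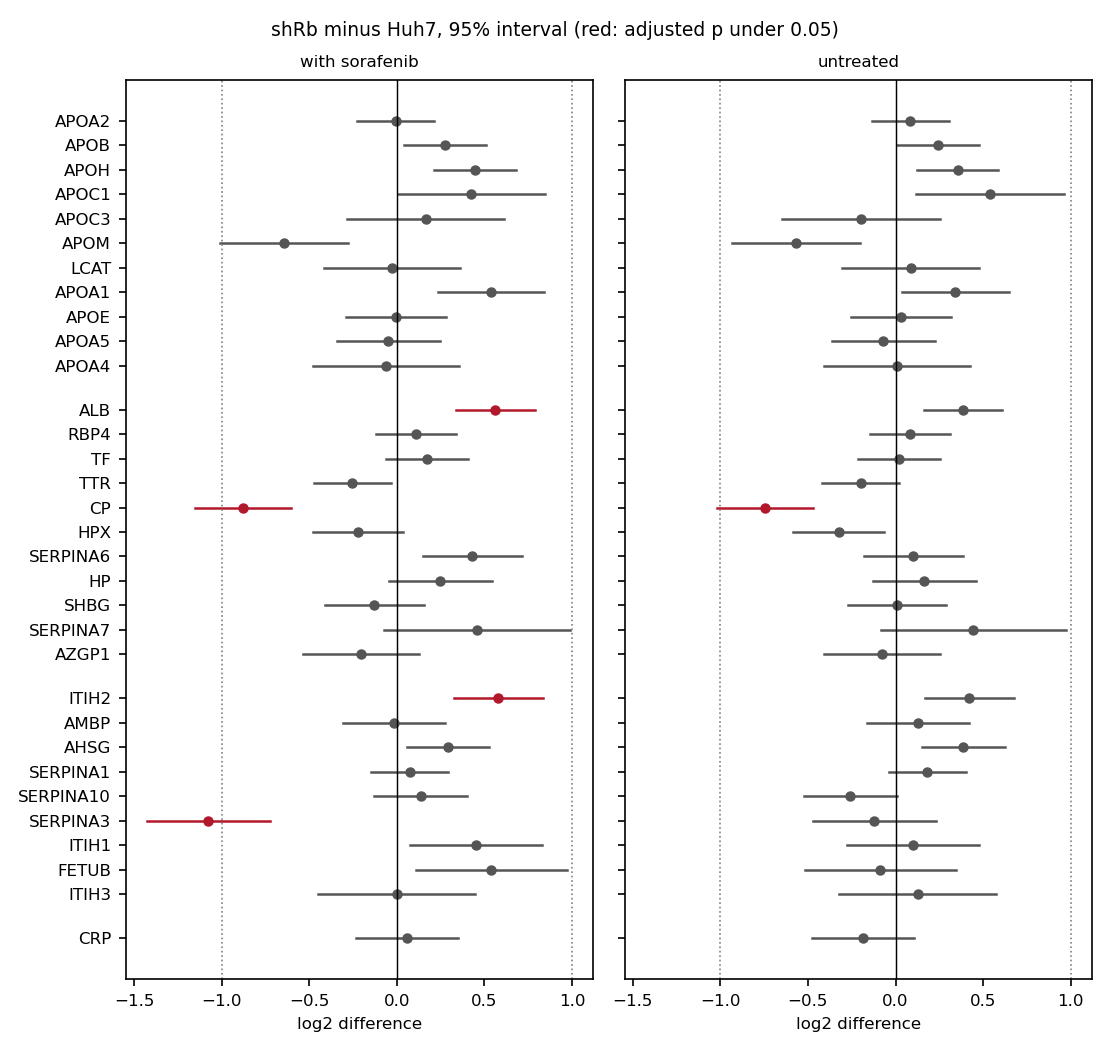
Log2 difference, shRb minus Huh7, of the 32 plasma protein genes with sorafenib (left) and untreated (right), with 95% intervals from limma; red marks an adjusted p under 0.05 and the dotted lines mark 2-fold. CP is red in both panels and lies to the left, SERPINA3 is red at the left and ALB and ITIH2 are red at the right of the treated panel.

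Lists of other genes of the same pathways were set beside these. Of 10 measured transcription factors of the liver, 3 fell with sorafenib in shRb and 2 in Huh7, against 3.09% and 1.26% of all clusters, and none passed as higher, with medians of -0.22 and -0.37. FOXA1, which opens chromatin at liver genes, fell by 1.06 in shRb (SE 0.12, adjusted p = 0.00104) and by 0.69 in Huh7 (SE 0.14, adjusted p = 0.0426). The shRb call of FOXA1 was kept without any one array (adjusted p at most 0.00676). CEBPA, a member of the C/EBP family, fell by 0.67 in shRb (SE 0.11, adjusted p = 0.00644), a call kept likewise (at most 0.0313). In Huh7 CEBPA had a difference of -0.40 (adjusted p = 0.195). PROX1, a repressor in hepatocytes, fell by 0.47 in shRb (adjusted p = 0.0394) and had a difference of -0.39 in Huh7 (adjusted p = 0.233). NR0B2, a repressor that bile acids induce, fell by 1.32 in Huh7 (adjusted p = 0.0249) and had a difference of -0.66 in shRb (adjusted p = 0.093). RXRA, the partner of many nuclear receptors, had values of 5.38, 6.06 and 6.06 with sorafenib and 5.37, 5.27 and 5.10 without in shRb, and of 5.93 and 6.14 with and 5.31 and 5.43 without in Huh7. Its treated arrays lay above the untreated ones in both lines, but the differences of 0.58 (adjusted p = 0.107) and 0.67 (adjusted p = 0.205) in shRb and Huh7 did not pass. FOXA2 and FOXA3 had differences of -0.08 and -0.01 in shRb and of 0.28 and 0.07 in Huh7. By the methods' t-test the shRb calls of FOXA1 and CEBPA ended (adjusted p = 0.0635 and 0.0624).

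A list of 10 genes of the interleukin-6 pathway also held the interleukin-1 receptor gene IL1R1, which is not of that pathway. Of these 10, 2 rose and 1 fell in shRb, against 2.3% of all clusters higher and 3.09% lower. In Huh7 none of the 10 passed, against 2.04% of all clusters. CEBPB rose by 0.38 (adjusted p = 0.0278) and the receptor gene IL6R by 0.75 (0.0402), while the gene that fell was IL1R1, by 0.46 (0.0418). In Huh7 these genes had the same signs without overlap, with 0.27, 0.46 and -0.25 (adjusted p = 0.286, 0.421 and 0.513). Their effects were not found to differ between the lines (adjusted p = 0.904, 0.884 and 0.851). Of 9 other acute phase plasma protein genes, LRG1 fell by 0.64 in shRb (0.04) and had a difference of -0.14 in Huh7 (0.844). HAMP, which encodes the iron hormone hepcidin, rose 2.30-fold in Huh7 (0.0258) and had a difference of 0.69 in shRb (0.0574). Of 17 lipoprotein partners, none passed in shRb and VLDLR, a receptor of triglyceride-rich lipoproteins, rose 1.76-fold in Huh7 (0.0223). The VLDLR difference in shRb was 0.32 without overlap (0.178). The 3 calls of IL6R, IL1R1 and LRG1 and that of PROX1 were close to the threshold. Leaving out any array ended the call of PROX1 (adjusted p = 0.0513 to 0.137), any but replicate 9 that of IL6R (0.0579 to 0.117), any but replicate 10 that of IL1R1 (0.0554 to 0.142), any but replicates 5, 6 and 11 that of LRG1 (0.0503 to 0.14) and any shRb array that of CEBPB (0.0572 to 0.0908). Leaving out any Huh7 array ended the Huh7 calls of VLDLR (0.077 to 0.161), HAMP (0.0663 to 0.18), NR0B2 (0.0601 to 0.177) and FOXA1 (0.0714 to 0.263), and that of FOXA1 ended also without replicates 7, 8, 9 or 10 (0.0526 to 0.07).

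Between treated lines, 3 of the 17 lipoprotein partners were higher and 1 was lower in shRb, against 1.29% and 0.99% of all clusters. MTTP, which loads lipid onto apolipoprotein B, was 1.77-fold higher (log2 difference 0.83, adjusted p = 0.0155), beside an APOB difference of 0.27 (adjusted p = 0.266). Between untreated lines MTTP differed by 0.23 (adjusted p = 0.659). With sorafenib MTTP differed by -0.42 in Huh7 and 0.17 in shRb, and neither passed (adjusted p = 0.242 and 0.562 from limma). Its difference of effects of 0.60 did not pass either (adjusted p = 0.467). PON1, an enzyme carried on high density lipoprotein, was 1.84-fold higher between treated lines (adjusted p = 0.0122) and differed by 0.12 between untreated lines (0.877). With sorafenib PON1 differed by -0.45 in Huh7 and 0.31 in shRb, and neither passed (adjusted p = 0.208 and 0.221 from limma). Its difference of effects of 0.77 did not pass either (adjusted p = 0.311). ABCA1, which exports cholesterol to APOA1, was 1.69-fold higher between treated lines (0.0165), beside an APOA1 difference of 0.54 that did not pass. The untreated ABCA1 difference was 0.34 (0.361). PLTP, which moves phospholipid between lipoproteins, and the repressor NR0B2 differed by -0.39 and 0.90 between untreated lines (0.265 and 0.116). Between treated lines PLTP differed by -0.69 (0.0232) and NR0B2 by 1.56 (0.0069), and both passed. These calls ended without Huh7 sorafenib replicate 6 (adjusted p = 0.0806 to 0.174), and those of PON1, ABCA1 and PLTP also without replicate 5 (0.0991, 0.125 and 0.0992).

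**Figure D5:**
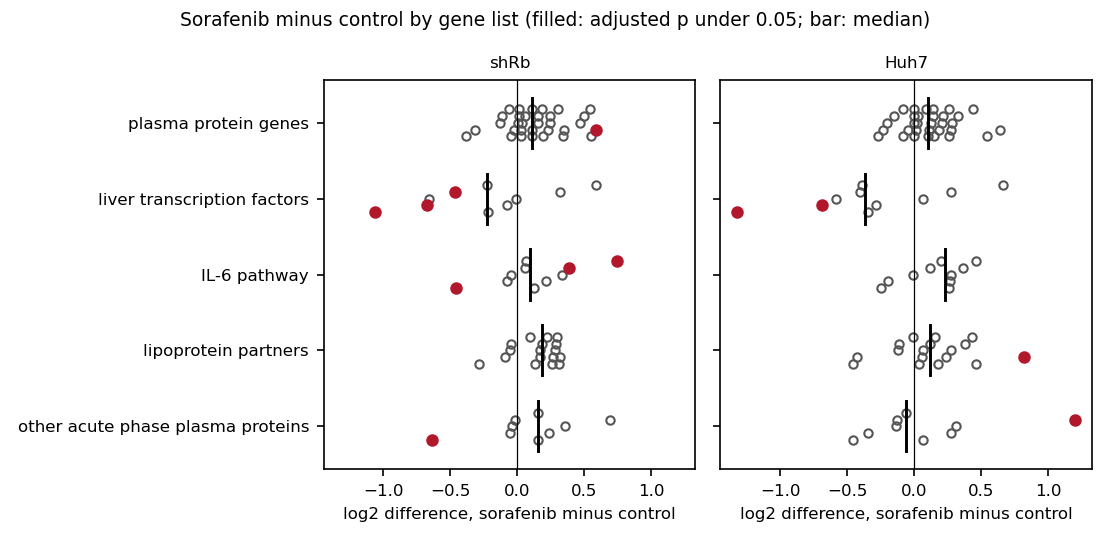
Log2 difference, sorafenib minus control, in shRb (left) and Huh7 (right) for the plasma protein genes and for 4 lists of other genes; each point is a gene, filled red where the adjusted p from limma was under 0.05, and the bar is the list's median. The plasma protein genes lie close around a small positive median in both lines, while the liver transcription factors have a median below 0.

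Some markers of other cell types moved in the same comparisons. SOX9, a biliary marker, fell with sorafenib in shRb by 0.88 (adjusted p = 0.00293). In Huh7 SOX9 differed by -0.47 without overlap (adjusted p = 0.168). Its effects in the lines differed by -0.41 (shRb minus Huh7, adjusted p = 0.683), which did not pass. Of 4 biliary markers 1 passed in shRb, against 5.38% of all clusters, and 0 in Huh7, against 2.04%. The summed linear level of the 4 lay between 348 and 394 in treated and 534 and 645 in untreated shRb cells. It lay between 423 and 464 in treated and 531 and 592 in untreated Huh7 cells. SOX9 was the brightest of the 4 in every group, with means of 8.08 in treated and 8.95 in untreated shRb cells, and weighs most in this sum. With sorafenib 2 of the 4 were positive and 2 negative in each line, with medians of -0.088 in shRb and 0.10 in Huh7. LUM, 1 of 6 fibroblast markers, rose with sorafenib in shRb by 0.49 (adjusted p = 0.0134). In Huh7 LUM differed by -0.25 without overlap (adjusted p = 0.378), and the difference of effects of 0.74 did not pass (adjusted p = 0.182). The summed level of this list was 105 to 119 in treated and 97.1 to 106 in untreated shRb cells. It was 113 to 122 in treated and 124 to 133 in untreated Huh7 cells. LUM was the brightest of this list in every group. Between untreated lines EPCAM was higher in shRb by 0.73 (SE 0.10, adjusted p = 0.0107) and the only biliary marker to pass, and LUM differed by -0.73 (SE 0.10, adjusted p = 0.00928) and was the only fibroblast marker to pass. Of 5 leukocyte markers CD68 alone differed between the treated lines (-0.99, adjusted p = 0.0094), and of 4 endothelial markers none passed in any comparison. Of all clusters 1.02% passed between untreated and 2.28% between treated lines. The part of these markers in the results for the plasma protein genes was not tested.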

How the data were processed

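RNA from 10 samples was hybridized to Affymetrix HuGene 2.1 ST arrays, and the authors normalized the arrays with Expression Console by RMA-sketch. As deposited, the values are log2 intensities of 53617 transcript clusters. The software version, annotation and genome build are not given in the sources used here. A platform table gave 23866 clusters 1 gene symbol, 1852 several and 27899 none, and a gene took its brightest cluster with that symbol alone.

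The means of 4 groups were fitted with limma 3.58.1 (R 4.3.3) over all 10 arrays (6 residual degrees of freedom), with Benjamini-Hochberg adjustment over all clusters and a threshold of 0.05. Groups came from the sample labels. The authors analysed the arrays in Affymetrix's TAC software at its default settings, which was not run here. The t-test that the methods name for cell experiments in general, not for the arrays, was run as an alternative. The scripts were tested on simulated data. The number of arrays limits the precision given here.

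The members, lists and tests were chosen with earlier results of these data known. Values on every array were given for members past the threshold in a sorafenib comparison or in the difference of effects, for the 6 largest called differences between untreated lines and for ALB, APOA1, APOB, TTR, SERPINA1 and CRP, and up to 4 genes of each other list were named by smallest p in each comparison. Other members given in full were chosen after their values were seen. The alternatives were another variance model, brighter clusters only, a second quantile normalization, median centring, clusters with 1 symbol only, arrays of the compared groups alone, the methods' t-test, a replicate block, the mean over a gene's clusters and leaving out each array.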

Additional observations from a re-analysis of the deposited data

How the results depend on the processing

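Counts of plasma protein genes past the threshold changed with the processing as follows. With a trended and robust variance, 3 passed with sorafenib in shRb (APOH, SERPINA6 and AHSG), 1 in Huh7 (AHSG) and 2 between untreated lines (ALB and CP). Of all clusters 3094, 1201 and 644 passed in these comparisons, against 2887, 1094 and 546 in the main fit. The setting with brighter clusters only kept those with a mean above the median of all cluster means, and so not ITIH3, AZGP1 and CRP. There 2 passed in shRb and 7 between treated lines, beside 3592 and 1818 of the clusters kept. With clusters of 1 gene symbol only, 3 and 7 passed, beside 2311 and 1608 of 23866 clusters. Fewer clusters were tested in both settings than in the main fit, where 2887 and 1223 passed. On the arrays of the compared groups alone 0 passed between untreated and 0 between treated lines, in fits with fewer arrays. There 279 and 222 of all clusters passed. By the methods' t-test 0 passed in shRb, 0 between untreated and 0 between treated lines, against 6, 9 and 10 at an unadjusted p under 0.05. Of all clusters 141, 13 and 0 passed by that test after adjustment, and those at the unadjusted level were not counted. The cause of the other changes was not tested. Leaving out each array in turn gave 0 to 4 in shRb, 0 in Huh7, 0 to 1 between untreated and 0 to 4 between treated lines. Of all clusters 1517 to 2723, 199 to 1280, 137 to 594 and 303 to 909 passed there, in the same order. The difference of effects gave 0 in all 16 alternatives, beside 3 to 77 of the clusters tested, and no difference past the threshold changed its direction.

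In shRb the same-numbered treated and untreated arrays had correlations of deviations of -0.15, -0.16 and -0.05, and the other pairs had -0.04 to 0.19. With 3 arrays per group these values cannot decide whether the numbers pair the samples. With the replicate block on the shRb arrays alone 0 genes passed (adjusted p = 0.13 for SERPINA6) and 836 of all clusters. On the same arrays without the block SERPINA6 passed (adjusted p = 0.0354), as did 1903 of all clusters, against 2887 in the fit over all arrays. Of the other genes' shRb calls named, that of FOXA1 held in the fit with the block (0.0295). Those of CEBPA (0.0744), PROX1, CEBPB, IL6R, IL1R1 and LRG1 (0.142 to 0.229) ended there. Without the block those of FOXA1 (0.00551) and CEBPA (0.0154) held on the same arrays, and the rest ended (0.0754 to 0.0952). The Huh7 labels give no such order. With 2 or 3 arrays per group, differences of the plasma protein genes had 95% intervals reaching a median of 0.26 in shRb and 0.32 in Huh7 to each side (0.196 to 0.474 and 0.24 to 0.58 over single genes), before any adjustment for the number of clusters tested. Clusters near or below the array median, such as CRP, ITIH3, AZGP1 and FETUB, may hold background that flattens a change.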
